A study of Rattus norvegicus with 17 samples.

Results

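The members described here are complement components and regulators measured on microarrays of rat spinal cord neurons. They were the probe sets whose only gene symbol was C1qa, C1qb, C1qc, C1s, C3, C4a, Serping1 or Cd59, and 6 of these 8 genes had such a probe set, of 14218 genes with one on the arrays. C4a shares its probe set with C4b, and the gene listed as Cd59 is on the arrays under the symbol Cd59b, for which RefSeq gives Cd59 as a synonym. Values of these 2 probe sets are given beside the members and are not counted among them. Each of 17 arrays was made from 1000 retrogradely labelled spinal neurons, cut out by laser from 10 µm cryosections of unfixed rat cord. The groups were 7 Regenerating and 7 Non-regenerating samples, both axotomised and both from the same 7 animals, and 3 Traced samples of labelled neurons without axotomy from 3 other animals. Strain, age, sex, the tracer, the kind of lesion, the time after it and how regenerating neurons were told from the others are not given in the sources used here.

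Complement is a cascade of blood and tissue proteins that marks cells, debris and synapses for removal. In its classical pathway the chains A, B and C of C1q bind a target, the protease C1r then activates C1s, C1s cleaves C4 and C2, and the resulting enzyme cleaves C3, whose fragments are taken up through receptors of phagocytes. C1 inhibitor, the product of Serping1, blocks C1r and C1s, and CD59 stops the assembly of the membrane pore. In the central nervous system microglia are the main source of C1q, and astrocytes and some neurons can make C3, C4 and C1 inhibitor.

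The signal of every probe set was on a linear scale, and differences are given as log2 of the signal plus an offset of 16, so that folds of dim probe sets are understated. Of 31099 probe sets, 18625 were bright enough to be tested. C1qb was too dim, so 5 of the 6 members were tested, and each of these 5 averaged more than the filter level of 34.0 in the Traced samples too. Arrays of the 2 animals with names starting MOON had median signals of 32.7 to 38.9, those of the 8 animals with names starting MM had 45.1 to 76.7, and all Traced animals were MM animals. The arrays of Non-regenerating MM17 and Traced MM15 stood apart, with median correlations of 0.847 and 0.821 with the other arrays, against at least 0.905 elsewhere. The deposit marks Traced MM15 as a high yield replicate. The ratio of the 3' to the 5' GAPDH control signal, which rises as transcripts are shortened, differed between arrays. Its median was 54.4 in Regenerating (32.3 to 78.7), 45.1 in Non-regenerating (10.0 to 150) and 26.0 in Traced samples (11.7 to 37.4). The part of RNA quality in the differences between groups was not tested. All 11 neuron markers looked up were bright enough to test, and so were all 10 astrocyte markers and 11 of 16 of microglia and macrophages. All values are limited in precision by how few arrays there are.

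The question of the comparisons with the Traced samples is which genes go with axotomy. C1qa (probe set 1376652_at), the A chain of C1q, rose 2.86-fold in Regenerating over Traced neurons, and was about as high in Non-regenerating neurons without passing the test there. Its signal was 754.7 at the lowest, 1400 at the median and 1756 at the highest in the 7 Regenerating samples, and 671.6, 1219 and 1767 in the 7 Non-regenerating samples. In the 3 Traced samples it was 377.6, 457.7 and 483.4. Every axotomised sample thus lay above every Traced sample, and the 2 axotomised groups overlapped almost fully. The mean was 1322 ± 339 (SD, n = 7) in Regenerating and 439.6 ± 55.2 (SD, n = 3) in Traced neurons, a log2 difference of 1.52 (SE 0.25, 2.86-fold, 95% limits 1.96 to 4.17, adjusted p = 0.029 by limma over all tested probe sets). In Non-regenerating neurons the mean was 1212 ± 355, and the difference of 1.38 (SE 0.27, 2.61-fold, 95% limits 1.75 to 3.89) had an adjusted p of 0.12 by limma. These 2 comparisons use the same Traced samples. Fewer cells of a type and less RNA per cell cannot be told apart in such bulk samples.

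The call for C1qa in Regenerating neurons was kept in 14 of 21 other settings, with differences of 1.41 to 1.91 over all of them. It ended, with adjusted p of 0.059 to 0.22 by limma, without Regenerating MM11 (1.44), MM13 (1.53) or MM14 (1.47) and without Traced MM15 (1.41, also when both arrays that stood apart were left out), MM18 (1.55) or MM19 (1.59). For Non-regenerating neurons, 2 of 21 alternatives gave C1qa a pass, namely array weights (1.35, adjusted p = 6.5e-04) and 1 fit over all arrays with the animal as a random block (1.38, adjusted p = 0.015).

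C1qc (1373025_at), the C chain, differed less from Traced neurons. Its signal was 99.7, 181.7 and 213.2 at the lowest, median and highest in Regenerating and 52.2, 138.5 and 187.8 in Non-regenerating samples, against 75.8, 118.1 and 123.0 in the 3 Traced samples. The groups overlapped. The differences from Traced neurons were 0.60 (SE 0.28, adjusted p = 0.20 by limma) in Regenerating and 0.26 (SE 0.34, adjusted p = 0.77) in Non-regenerating neurons, where the 95% limits of -0.46 to 0.98 include 0. The value in Non-regenerating neurons was 0.069 without Traced MM15 and 0.0074 without both arrays that stood apart, and 0.62 with median centring. C1qb (1370215_at), the B chain, had signals of 9.9, 48.6 and 86.2 in Regenerating and 12, 41.6 and 71.3 in Non-regenerating samples, against 5.6, 18.1 and 19.0 in the Traced samples. In the MM animals alone C1qb lay at 46.0 to 86.2 in Regenerating and 24.0 to 71.3 in Non-regenerating samples, all above the Traced samples, while the MOON animals averaged 14.1 and 16.2. With no filter on dim probe sets, C1qb differed from Traced by 0.94 (SE 0.39, adjusted p = 0.17 by limma) in Regenerating and 0.82 (SE 0.38, adjusted p = 0.47) in Non-regenerating neurons.

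The genes of the 3 C1q chains lie side by side on rat chromosome 5, in the order C1qb, C1qc and C1qa in the RefSeq annotation of build GRCr8. RefSeq promoter windows were matched for C1qa, C1qb and C3, which are 3 of the 6 members. Those of C1qa and C1qb are shown because these neighbours were both higher in axotomised MM animals. In the MOON animals C1qb differed from Traced by 0.01 in Regenerating and 0.11 in Non-regenerating neurons, and it was too dim to test. Each window runs from 250 bases before to 50 bases after the annotated start on the minus strand, at chr5:154419884-154420183 for C1qa and chr5:154407778-154408077 for C1qb. Capitals mark matches to the STAT motif TTCNNNGAA in C1qa and to the PU.1 core GAGGAA in C1qb, searched on both strands.
C1qa: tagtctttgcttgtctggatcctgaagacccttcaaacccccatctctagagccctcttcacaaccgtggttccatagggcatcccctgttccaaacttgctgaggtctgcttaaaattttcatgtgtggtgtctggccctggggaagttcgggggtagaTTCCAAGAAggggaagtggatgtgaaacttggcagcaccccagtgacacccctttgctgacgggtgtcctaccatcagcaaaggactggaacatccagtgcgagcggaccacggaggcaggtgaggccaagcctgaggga
C1qb: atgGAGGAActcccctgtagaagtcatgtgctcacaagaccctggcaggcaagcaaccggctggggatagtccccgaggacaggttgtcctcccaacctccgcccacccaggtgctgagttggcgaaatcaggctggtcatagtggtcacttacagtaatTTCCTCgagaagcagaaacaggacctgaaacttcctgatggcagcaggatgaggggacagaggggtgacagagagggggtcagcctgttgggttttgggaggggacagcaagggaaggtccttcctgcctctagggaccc
The match in C1qa lies 90 to 82 bases before the start. Those in C1qb lie 247 to 242 bases before its start as printed and 90 to 85 bases before it on the complementary strand. GAGGAA was present in 27.6% of all 33469 promoter windows of this length and TTCNNNGAA in 8.87%. The core of the interferon-stimulated response element was in 3.92% of windows and in neither of these. The window of C3, a gene above Traced in every axotomised sample, is not shown and held none of the 3 motifs. A match is a string of letters and was not tested for binding.

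C1s (1387893_at), the protease that cleaves C4 and C2, was higher in the axotomised samples without overlap. Its signal was 558.6, 811.2 and 1172 at the lowest, median and highest in Regenerating and 441.0, 623.1 and 720.8 in Non-regenerating samples. The Traced samples had 303.8, 342.3 and 439.7. The gap between the lowest Non-regenerating and the highest Traced sample was thus narrow, and that to the Regenerating samples was wider. The difference was 1.11 (SE 0.24, 2.16-fold, 95% limits 1.51 to 3.09, adjusted p = 0.068 by limma) in Regenerating and 0.64 (SE 0.23, 1.55-fold, adjusted p = 0.47) in Non-regenerating neurons, and neither passed. In Regenerating neurons C1s passed in 4 of 21 other settings, namely median centring (1.50), array weights (0.96), without Regenerating MM17 (1.02) and the name prefix as a term (1.19).

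C3 (1368000_at), the central component of the cascade, had the largest log2 differences from Traced among the tested members, and the largest standard errors of them. Its signal was 109.3, 505.7 and 1055 at the lowest, median and highest in Regenerating and 119.3, 248.7 and 1334 in Non-regenerating samples. The Traced samples had 53.8, 76.8 and 83.8, below every axotomised sample. Regenerating neurons averaged 435 ± 329 and Non-regenerating neurons 412 ± 431 (SD, n = 7 each), against 71.5 ± 15.7 (SD, n = 3) in Traced neurons. The log2 difference from Traced was 2.03 (SE 0.55, 4.08-fold, 95% limits 1.81 to 9.19, adjusted p = 0.069 by limma) in Regenerating and 1.83 (SE 0.57, 3.56-fold, 95% limits 1.52 to 8.36, adjusted p = 0.47) in Non-regenerating neurons. The level went with the name prefix. In the MM animals C3 averaged 560 in Regenerating and 525.5 in Non-regenerating samples, and in the MOON animals 124 and 130, still above the highest Traced sample. Among the MM animals, MM17 was nearest to the MOON animals, at 204.8 in Regenerating and 147.7 in Non-regenerating neurons. Among MM animals alone the difference in Regenerating neurons was 2.56 and passed (adjusted p = 0.021), and in all it passed in 6 of 21 other settings. In Non-regenerating neurons it passed in 1 of 21, array weights (1.95). What sets the prefixes apart is not given in the sources used here, and its part in the level of C3 was not tested.

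The probe set annotated to both C4a and C4b (1370892_at) cannot be assigned to either of these near-identical genes, whose product is the target of C1s. Its signal was 45.7, 110.7 and 192.2 in Regenerating and 53.1, 80.5 and 104.2 in Non-regenerating samples, against 32.2, 40.6 and 40.8 in the Traced samples. It did not overlap between axotomised and Traced samples. The difference from Traced was 1.17 (SE 0.32, 2.24-fold, adjusted p = 0.071 by limma) in Regenerating and 0.77 (SE 0.27, 1.70-fold, adjusted p = 0.47) in Non-regenerating neurons. It passed in 5 of 20 other settings for Regenerating neurons (1.21 to 1.55) and in 1 of 20 for Non-regenerating neurons (0.79, with array weights).

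Of the inhibitors, Serping1 (1372254_at), which encodes C1 inhibitor, had signals of 52.6, 111.3 and 247.2 at the lowest, median and highest in Regenerating and 61.6, 99.9 and 126.1 in Non-regenerating samples, against 49.3, 57.9 and 66.7 in the Traced samples. The groups overlapped through MOON265 in both axotomised groups and through Non-regenerating MM14, and every other axotomised sample lay above the Traced ones. The difference was 0.80 (SE 0.34, adjusted p = 0.17 by limma) in Regenerating and 0.56 (SE 0.28, adjusted p = 0.47) in Non-regenerating neurons. It passed for Regenerating neurons with median centring (1.19, adjusted p = 0.049) and with array weights (0.92, adjusted p = 0.016). Cd59b (1367929_at), the membrane inhibitor of the pore, had signals of 1999, 2683 and 2895 in Regenerating and 1614, 2373 and 3600 in Non-regenerating samples, against 2306, 2406.5 and 2544 in the Traced samples. The groups overlapped throughout. Cd59b averaged 2533 ± 348 in Regenerating and 2516 ± 742 in Non-regenerating samples, and 2419 ± 120 in Traced samples (SD, n = 7, 7 and 3). Its differences from Traced were 0.06 (95% limits -0.35 to 0.46) and 0.01 (95% limits -0.55 to 0.56). With median centring the differences were 0.44 (SE 0.26) and 0.37 (SE 0.37), and with quantile normalization that of Non-regenerating neurons was -0.14, so that the value depends on the scaling, and it passed under neither.

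**Figure D1:**
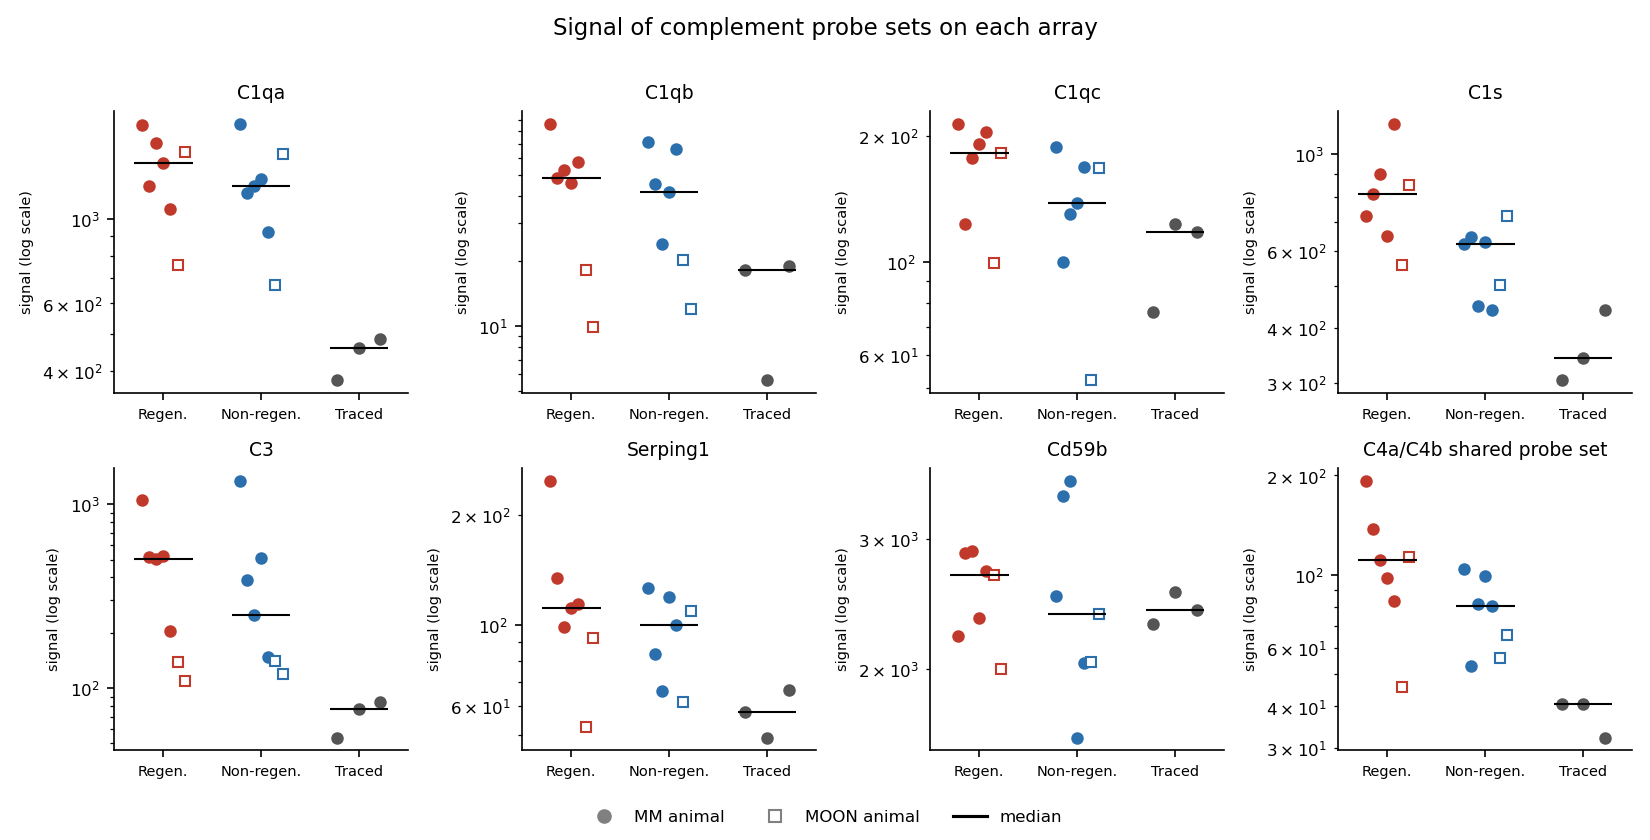
Signal (log scale) of each probe set on each array, by group, for 6 members, Cd59b and the probe set shared by C4a and C4b. Filled circles are MM animals, open squares MOON animals and bars the group medians. C1qa lies at 671.6 or more on every axotomised array and at 483.4 or less on the Traced arrays, and Cd59b overlaps throughout.

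Read together, 5 of 5 tested members had a positive difference from Traced in both axotomised groups. Their median was 1.11 in Regenerating and 0.64 in Non-regenerating neurons, while the median of all 18625 probe sets was -0.12 in both and 40.8% and 38.8% of them were positive. In Regenerating neurons 1 of 5 passed as higher and 0 as lower, where 0.156% of all probe sets passed as higher. At an unadjusted p under 0.05 all 5 tested members were higher there, against 5.98% of all probe sets. In Non-regenerating neurons 0 of 5 passed in limma (0.043% of all passed as higher), and 3 of 5 were higher at an unadjusted p under 0.05, against 2.68% of all. The members C1qa, C1s and C3 did not overlap with the Traced samples in either group, as was true of 2.35% of all probe sets for Regenerating and 1.1% for Non-regenerating neurons. In the opposite direction 9.36% and 1.47% of all probe sets did not overlap, and no member. These shares describe the members and do not test them as a set. The members were chosen with earlier results of these data known and are set against the same Traced samples. They are also not separate observations, as the 5 tested members correlated with each other at r = 0.48 to 0.78 over the 17 arrays. Median centring shifted the median of all probe sets to 0.26 and 0.24. On that scale the 5 members had a median of 1.50 in Regenerating neurons, where 4 of 5 passed and 329 of all 18625 probe sets did, against 40 without centring. In Non-regenerating neurons 0 of 5 passed on it, and 11 of all probe sets.

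**Figure D2:**
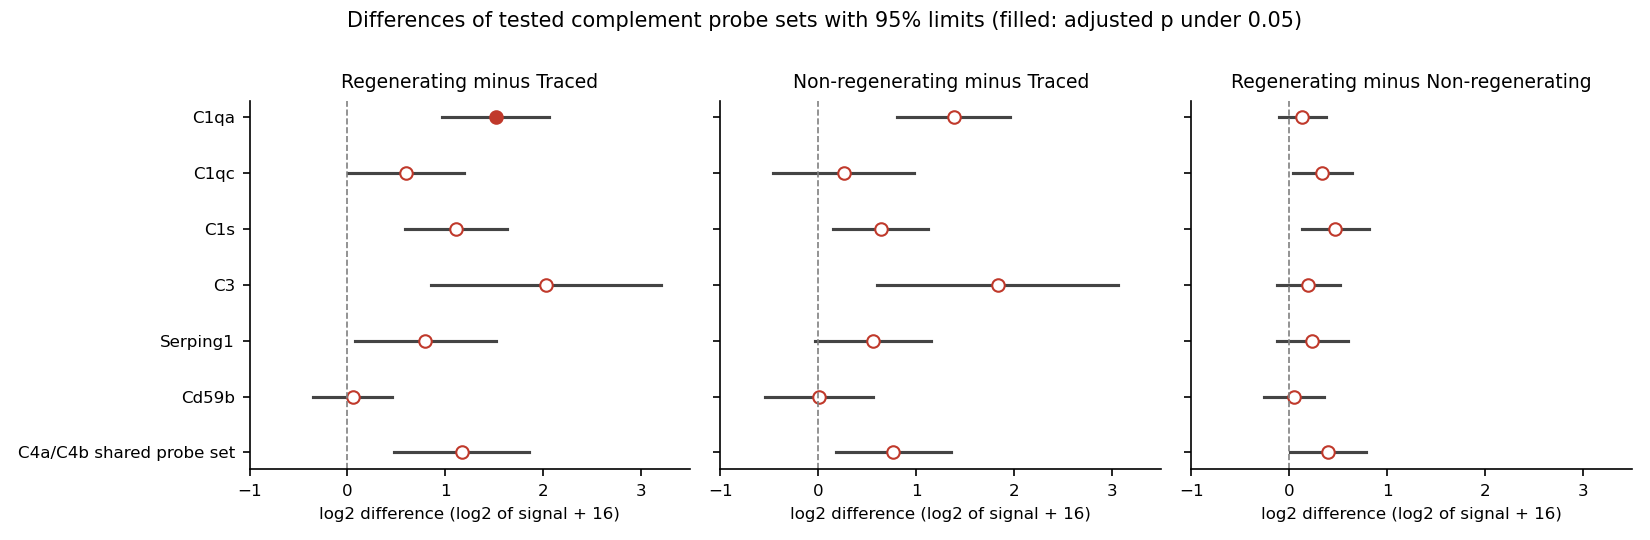
Log2 differences of the tested probe sets with 95% limits from limma, in the 3 comparisons, on the scale of log2(signal + 16). The filled point, C1qa in Regenerating minus Traced neurons at 1.52, is the one with an adjusted p under 0.05. C3 has the widest limits in both comparisons with Traced, and the differences within animals on the right lie between 0.05 and 0.47.

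Markers of glia were measured on the same arrays. In Regenerating over Traced neurons 1 of 11 for microglia and macrophages and 1 of 10 for astrocytes passed as higher, where 0.156% of all probe sets did. None passed in Non-regenerating neurons, where 0.043% of all probe sets passed as higher. The summed signal of the 11 tested microglia and macrophage markers was 8815 to 16974 in Regenerating and 9019 to 16113 in Non-regenerating samples, against 5797 to 7186 in Traced samples. The groups of axotomised and Traced samples did not overlap. Of the 11 markers, 11 were higher than in Traced in Regenerating and 10 in Non-regenerating neurons, with medians of 0.71 and 0.85. The shares of all probe sets that were higher were 40.8% and 38.8%. Laptm5, a lysosomal protein of immune cells, was the 1 marker that passed, at 1.58 (SE 0.25, adjusted p = 0.021 by limma) in Regenerating neurons. P2ry12, a receptor of resting microglia, differed by 1.12 (adjusted p = 0.068) and 1.08 (adjusted p = 0.33). Laptm5 and P2ry12 had the smallest p values of the list by limma in both comparisons. Csf1r differed by 0.47 and 0.49, Tmem119 by 0.57 and 0.62, Cd163 by 0.48 and 0.02, and Mrc1 by 0.16 and -0.22. No tested marker was at 0 on any array, and Cx3cr1 and Tyrobp were too dim to test. Within animals the microglia markers had a median of 0.01, with 6 of 11 higher in Regenerating neurons, against 49.8% of all probe sets.

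The 10 astrocyte markers summed to 14810 to 26843 in Regenerating and 14584 to 27628 in Non-regenerating samples, against 14475 to 20803 in Traced samples. Their medians against Traced were 0.42 and 0.44, with 8 and 9 of 10 higher, against 40.8% and 38.8% of all probe sets. Gfap, the astrocyte filament protein, was the 1 that passed, in Regenerating neurons at 1.33 (SE 0.22, adjusted p = 0.026 by limma). Glul and Slc1a2 were lower there, by -0.31 and -0.13, and Aqp4 and Gja1 differed by 0.15 and 0.12. Within animals the astrocyte median was -0.12. The 11 neuron markers had medians of -0.20 and -0.03 against Traced. The medians against Traced in Regenerating and Non-regenerating neurons were -0.10 and -0.02 for 6 oligodendrocyte markers, -0.35 and -0.29 for 6 endothelial, 0.01 and -0.19 for 5 fibroblast and -0.42 and -0.32 for 2 blood markers. These signs depend on the scaling. After median centring the medians in Regenerating and Non-regenerating neurons were 0.19 and 0.33 for neurons and 0.29 and 0.34 for oligodendrocytes. They were 1.10 and 1.21 for microglia and macrophages and 0.81 and 0.79 for astrocytes. The medians of all probe sets were then 0.26 and 0.24. In Regenerating neurons 2 of 11 microglia and 2 of 10 astrocyte markers passed on that scale, and 329 of all 18625 probe sets did. The part of glial RNA in the levels of the members was not tested.

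**Figure D3:**
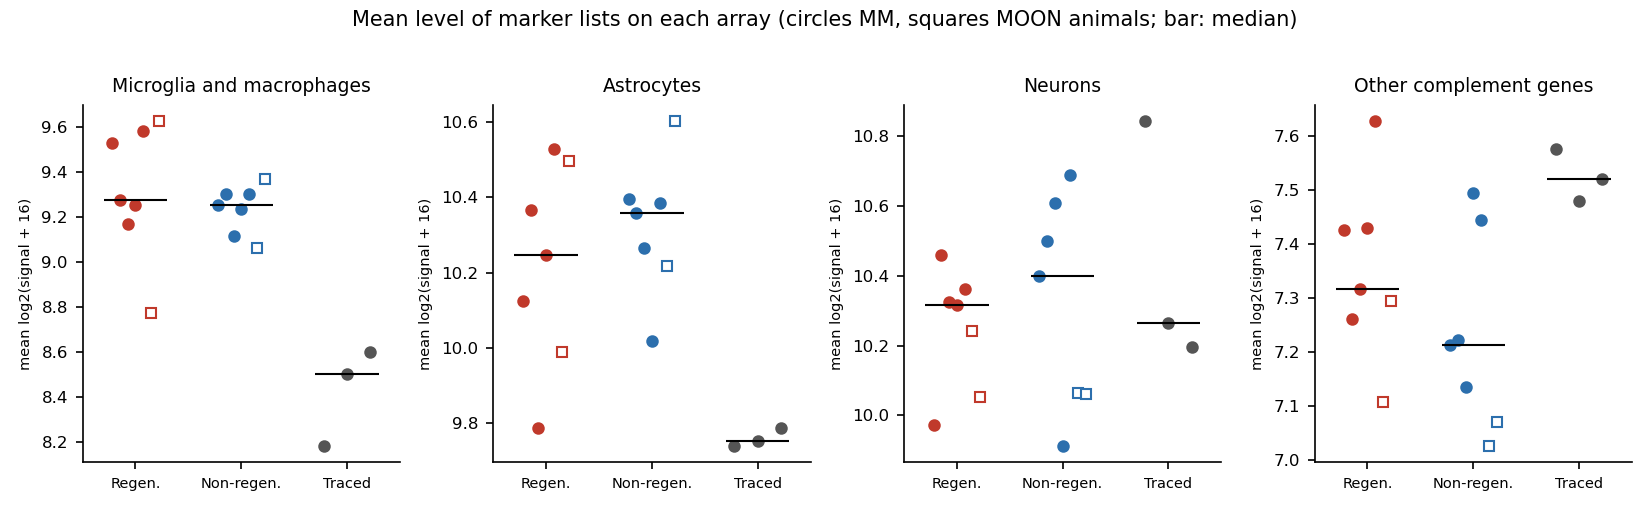
Mean of log2(signal + 16) over the tested genes of 4 lists on each array, by group. Circles are MM animals, squares MOON animals and bars group medians. The microglia and macrophage list is lower on the 3 Traced arrays than on all axotomised arrays, while the neuron list overlaps between groups.

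Regenerating and Non-regenerating neurons of the same animal were compared to ask which genes go with regeneration. No member passed there, and all 5 tested members had a positive mean difference. C1s was higher in the Regenerating sample of 7 of 7 animals, by 0.04 to 1.38 on the log2 scale, with a mean of 0.47 (SE 0.16, 1.39-fold, 95% limits 1.10 to 1.75, unadjusted p = 0.0092, adjusted p = 0.68 by limma). The highest values came from MM17 (1.38), whose Non-regenerating array stood apart, and from MM14 (0.97). Without MM17 the mean was 0.32. The 3' to 5' GAPDH ratio was 58.0 in Regenerating and 10.0 in Non-regenerating MM17, and 38.4 and 150 in MM14. MM14 also had the highest within-animal differences of C1qa, C1qb and C3. The part of RNA quality in these differences was not tested. C1qc was higher in 7 of 7 animals too, by 0.11 to 0.76, with a mean of 0.34 (SE 0.14, unadjusted p = 0.028, adjusted p = 0.68 by limma). Of all tested probe sets, 1.12% were higher in 7 of 7 animals.

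C1qa was higher in 6 of 7 animals but by little, with a difference of 0.13 (SE 0.11, 95% limits -0.10 to 0.37, adjusted p = 0.78 by limma), so that these data limit it to a change of at most 1.29-fold upward. C3 was higher in 4 of 7 animals (0.20, SE 0.15, adjusted p = 0.77), ranging between -0.33 in MM11 and 0.98 in MM14, and its mean was 0.065 without MM14. Serping1 was higher in 4 of 7 animals (0.24, SE 0.17, adjusted p = 0.76), with 0.89 in MM11 as its highest value and a mean of 0.13 without MM11. C1qb was higher in 4 of 7 (0.12 with no filter, SE 0.18, adjusted p = 0.91). The shared C4a and C4b probe set was higher in 5 of 7 (0.40, SE 0.18, adjusted p = 0.70) and Cd59b in 3 of 7 (0.05, SE 0.14, adjusted p = 0.95).

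The within-animal differences were also averaged by name prefix. Serping1 averaged 0.41 in the 5 MM animals and -0.20 in the 2 MOON animals, C3 0.30 and -0.06, and C1qb 0.21 and -0.10. C1s averaged 0.58 and 0.19, C1qc 0.30 and 0.43, and C1qa 0.15 and 0.09, so these 3 kept their direction in both. The difference between prefixes was not tested. By limma, 0 of 5 members passed in the comparison within animals, where the shares of all probe sets that passed were 0.0107% upward and 0.00537% downward. The members' count was 0 in each of its 18 other settings too, in which 0 to 3 of all probe sets passed. At an unadjusted p under 0.05, 2 of 5 were higher and 0 lower, against 4.26% and 2.81% of all probe sets. The sign was positive for 5 of 5, against 49.8% of all probe sets, and the median of the 5 was 0.24, against -8.7e-04 over all. As above, these shares describe members that correlate with each other and were chosen with earlier results of these data known.

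**Figure D4:**
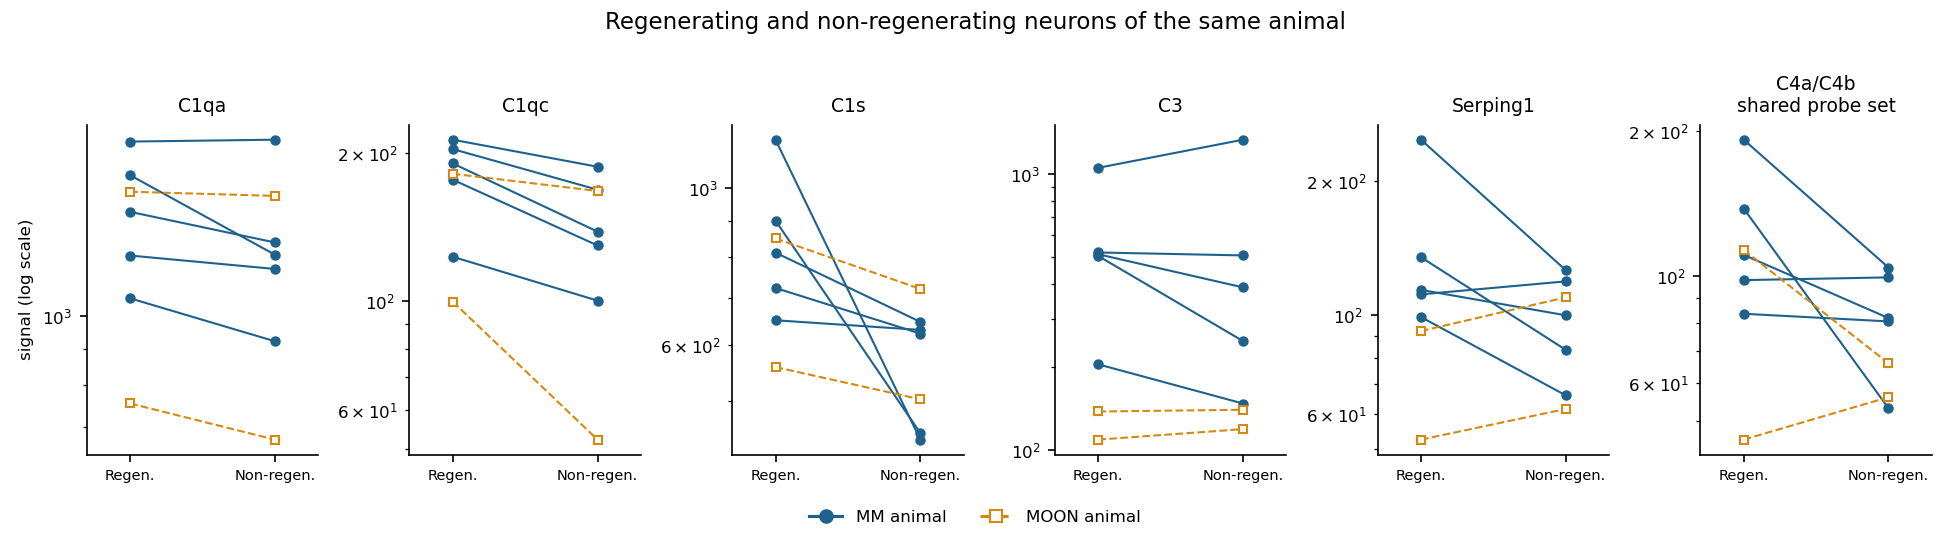
Signal (log scale) in the Regenerating and the Non-regenerating sample of each animal, joined by a line, for 5 members and the probe set shared by C4a and C4b. Solid lines are MM animals and dashed lines MOON animals. All 7 lines run downward to the right for C1s and C1qc, and those of C3 and Serping1 in both MOON animals run slightly upward.

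Of 40 other complement genes looked up, 21 were tested, 11 were too dim and 8 had no probe set of their own. None of the 21 passed in limma in the 3 comparisons. Against Traced, 3 were higher and 6 lower at an unadjusted p under 0.05 in Regenerating neurons, and 2 were higher and 6 lower in Non-regenerating neurons. Over all probe sets, 5.98% and 2.68% were higher and 17.6% and 7.61% were lower at that p. The median differences of the 21 genes were -0.03 and -0.35, and 10 and 9 of them were positive, against 40.8% and 38.8% of all probe sets. After median centring the medians were 0.36 and 0.01.

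C1r, the protease partner of C1s and its neighbour on chromosome 4, had the smallest p of those above Traced in Regenerating neurons. It averaged 174 ± 44.6 in Regenerating, 144 ± 39.4 in Non-regenerating and 83.4 ± 11.4 in Traced samples (SD), with differences from Traced of 0.90 (SE 0.26, adjusted p = 0.075 by limma) and 0.65 (SE 0.28, adjusted p = 0.47). It passed in Regenerating neurons after quantile normalization (adjusted p = 0.042) and median centring (adjusted p = 0.026). Itgb2, the beta chain of the phagocyte complement receptors, differed by 0.81 (adjusted p = 0.11) and 0.63 (adjusted p = 0.47), and passed in Regenerating neurons after median centring (adjusted p = 0.037). Several components of the lectin, alternative and terminal steps had negative differences that did not pass. C9, which forms the wall of the pore, differed by -1.26 (SE 0.33, adjusted p = 0.068) in Regenerating and -1.19 (SE 0.31, adjusted p = 0.47) in Non-regenerating neurons. The mean signal of C9 in Regenerating samples was 29.1, with 29.9 in Non-regenerating and 88.0 in Traced samples. Both axotomised means lay below the filter level of 34.0, so C9 reached the tests through its Traced samples. Its differences therefore cannot serve as support for a decrease. Cfp, which encodes properdin of the alternative pathway, differed by -1.02 and -1.08. Mbl2, a lectin that starts the lectin pathway, and C8g, a chain of C8, differed by -1.35 and -0.91 in Regenerating neurons. Mbl2 averaged 31.1 in Regenerating samples, also below the filter level, and 86.8 in Traced samples, so the same limit holds for it. Masp1, a lectin pathway protease, and Cfd, factor D, differed by -0.69 and -0.80 in Non-regenerating neurons. Median centring moves all differences of a comparison by the same amount, so negative ones of this size had to shrink and positive ones to grow. The centred values were -0.87 for C9, -0.63 for Cfp, -0.96 for Mbl2 and -0.52 for C8g in Regenerating neurons. They were -0.33 for Masp1 and -0.44 for Cfd in Non-regenerating neurons. After quantile normalization these were -0.90, -0.89, -1.04 and -0.66, and -0.59 and -0.50. None of these 6 genes passed under either. The median signal of the array was 32.7 to 76.7 in axotomised and 63.5 to 75.8 in Traced samples, and its part in these negative differences was not tested.

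Between Regenerating and Non-regenerating neurons, 2 of these 21 genes were higher and 1 lower at an unadjusted p under 0.05. The shares of all probe sets were 4.26% and 2.81%. The 2 smallest p values were those of Cfi and Clu. Other regulators ranged more widely, with 0.04 for Cr1l, 0.17 for Susd4, 0.28 for Cd46, 0.39 for Vtn and 0.41 for Cd55. Cfi, factor I, which degrades C3b, differed by 0.74 (SE 0.25, unadjusted p = 0.011, adjusted p = 0.68 by limma), and Clu, clusterin, which holds back the pore, by 0.52 (SE 0.19, adjusted p = 0.68). Cfi averaged 76.4 in Regenerating, 65.8 in Traced and 34.6 in Non-regenerating samples, the last near the filter level of 34.0. Its difference between Regenerating and Traced neurons was 0.07, and that of Clu was 1.08 (SE 0.44, adjusted p = 0.16 by limma). In Non-regenerating neurons Clu differed from Traced by 0.57 (SE 0.56, adjusted p = 0.69 by limma). Vtn, vitronectin, and Cd55, which dissolves the C3 convertase, differed within animals by 0.39 and 0.41 and Masp1 by 0.38. C3ar1, the receptor of C3a, differed within animals by -0.45 (SE 0.19, adjusted p = 0.68).

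Across the 17 arrays, the pattern of the mean of C1qa, C1qb and C1qc was most like that of Hexa (Pearson r = 0.90), Pdpn (0.90), Clec12a (0.90), Serpinb1a (0.89), Flnc (0.89) and Itgb2 (0.89), among 10426 genes at their brightest tested probe set. Over the 13 MM arrays these 6 had r of 0.90 to 0.95. For Serping1 they were Pdpn (0.90), Ifi30 (0.87), Clec12a (0.86), Psmb8 (0.85), Mid1ip1 (0.85) and Itgb2 (0.84). Pdpn, Clec12a and Itgb2 stood in both lists. The chains in that mean correlated with each other at 0.69 (C1qa and C1qc), 0.56 (C1qa and C1qb) and 0.47 (C1qb and C1qc) over all arrays. Over the MM arrays these were 0.70, 0.82 and 0.69, and C1qb was too dim to test. Among the members, C1qa and C3 had r = 0.78 over all arrays and 0.94 over the MM arrays, and C1qb and Serping1 0.74 and 0.87. Lower over all arrays were C1s and C3 (0.50) and C1qc and C3 (0.48). Cd59b had r of -0.20 to 0.11 with the 6 members over the 17 arrays. These values describe arrays that share animals, depth of signal and the difference between axotomised and Traced samples, and they have no test.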

How the data were processed

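RNA of laser captured neurons was amplified in repeated rounds and labelled with biotin, per the labels' protocols. The authors deposited 1 intensity per probe set and array, made with GCOS per the submitters' processing notes (version and settings not given in the sources used here). The mean without the lowest and highest 2% was 199.2 to 200 on every array, so the values were used as deposited. An offset of 16, the 25th percentile over all signals, was used for log2. Tests left out 57 controls and the 12417 probe sets in the lowest 40% by mean log2 signal. Gene symbols came from the platform annotation, and 20764 of 20832 probe sets with 1 symbol matched RefSeq by Entrez number, with 0 symbols changed.

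Regenerating and Non-regenerating samples were compared with the animal as a block, as the study design states, and each was compared with Traced between animals. Deviations from group means correlated within animals with r = 0.34 to 0.71. The pairing comes from the animal names in the labels. R 4.3.3 with limma 3.58.1 (lmFit, trended eBayes) gave the tests, with a Benjamini-Hochberg adjusted p under 0.05 over 18625 probe sets. The fits were tested on simulated data. All members were named, up to 6 other complement genes per comparison by smallest p, a few markers, and the 6 genes of most alike pattern. C1r and Itgb2 were named beside both comparisons with Traced, and the markers were picked after their values were seen. Members and lists were chosen with earlier results of these data known. Samples of a group came from different animals. Alternatives covered normalization, offset, filter, array weights, block, name prefix, 1 fit over all arrays and leaving out animals or arrays. Python 3.11.15 and matplotlib 3.10.9 drew the figures.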

Additional observations from a re-analysis of the deposited data

Results flagged for a closer look

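Of 24 sets of 7 values checked for a value far from the others, 3 had one. Chance alone marks about 1 in 20 sets where values are normally distributed. The signals were checked on the linear scale, where skew can mark more, so the number of flags is not set against chance. The C3 signal of Non-regenerating MM11 was 1334, with a gap to the next sample of 0.680 of the range. The Serping1 signal of Regenerating MM11 was 247.2, with a gap of 0.578 of the range. The within-animal log2 difference of C1qb in MM14 was 0.79, with a gap of 0.591 of the range. Without MM11, C3 differed from Traced by 1.48 in Non-regenerating neurons, and Serping1 by 0.62 in Regenerating neurons.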

How the results depend on the processing

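Of the 5 members tested, the number that passed in Regenerating against Traced neurons was 1. Among all 18625 probe sets 40 passed there. The members' number was 2 with quantile normalization (214 of all passed) and among MM animals alone (70), 4 with median centring (329) and with array weights (3131), 3 with the prefix as a term (202), 0 without the 2 arrays that stand apart (1), and 0 to 3 when 1 array was left out, with 3 without Regenerating MM17 (1504) and 0 without Regenerating MM11, MM13 or MM14 or any of the 3 Traced arrays. In Non-regenerating against Traced neurons it was 0, with 8 of all probe sets, and it was 2 with array weights (2440 of all), 1 with 1 fit over all arrays (23 of all) and 0 when 1 array was left out. Within animals it stayed at 0 in 18 settings, also with no replicate block, where C1s differed by 0.47 (adjusted p = 0.9999 by limma). Without the replicate block no member's call changed, and the calls among all probe sets went down to 0, against 3 with it. Over the other settings within animals they were 0 to 3. The 5 tested members kept a positive difference in every setting, but its size moved. C1qc in Non-regenerating against Traced neurons was 0.0074 without the 2 arrays that stand apart and 0.62 with median centring. Cd59b turned negative in Non-regenerating against Traced neurons with quantile normalization (-0.14) and ranged between -0.088 and 0.10 with 1 array left out. Within animals it was -0.011 without the 2 arrays that stand apart, and -0.032 to 0.11 with 1 animal left out. It passed in none of these, and the cause was not tested. The scaling of the other complement genes and marker lists was chosen after seeing the data. C1qb was limited by its dim signal.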
